A study of Mus musculus with 12 samples.

Results

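The 10 genes described here are commonly used markers of cancer stem cells, followed in SCC7 cells across 4 conditioned media. They are Cd44, Prom1, Sox2, Sox9, Klf4, Bmi1, Aldh1a1, Aldh1a3, Pou5f1 and Nanog. They were chosen for their general use as stemness markers, with earlier results of these data known. Matched by Ensembl identifier to mouse symbols, they are 10 of the 55487 genes in the count table. SCC7 is a mouse squamous carcinoma line, labelled WT in every library, and its RNA was sequenced after 24 h in medium conditioned by BMDM (bone-marrow-derived macrophages). M1 CM came from macrophages given interferon-gamma at 20 ng/ml for 24 h, and M2 CM from macrophages given interleukin-4 at 20 ng/ml. TAM CM came from macrophages kept in 75% SCC7-conditioned medium, and M0 CM from macrophages kept in plain DMEM. Each group had 3 libraries, 12 in all, and no group without macrophage medium is among them, so M0 CM is the reference here and not an untreated state.

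Cancer stem cells are the part of a tumour thought to renew themselves and to seed new growth, and they are usually recognised by a surface protein, an enzyme activity or a transcription factor rather than by a gene found in no other cell. CD44, a receptor for hyaluronan, and the aldehyde dehydrogenases of the ALDH1 group are the markers most often used in human head and neck squamous carcinoma. Prominin-1 (CD133) marks stem-like cells in several human tumours. SOX2, KLF4, POU5F1 (OCT4) and NANOG form the core of pluripotency and reprogramming. SOX9 marks progenitors of many epithelia, and BMI1 is a Polycomb protein that keeps stem cells dividing by silencing cell cycle inhibitors.

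Library totals ran from 18996937 to 22596630 counts, and 14509 genes passed the expression filter. Levels are CPM, counts scaled to a common library size by TMM (trimmed mean of M values). A gene was called where its Benjamini-Hochberg adjusted p, over all genes, was under 0.05 in the quasi-likelihood test of edgeR. Nothing in the labels ties the libraries of a group to separate cultures, and p-values therefore measure only the spread among libraries, which may be technical. That spread was small, with a common biological coefficient of variation of 3.65%, and small differences passed the test. For the third M2 CM library the cell type is entered as melanoma, while the cell line is SCC7 as in the others. Of 7 melanocyte markers it had 137 counts of Mitf and 6 of Pmel and none of the other 5, and the 3 libraries of M2 CM together had 400 of Mitf and 11 of Pmel. Every marker call in M2 CM kept its direction and its side of the threshold without it. The summed CPM of 8 fibroblast markers was 1444 to 1542 in M1 CM, 1471 to 1496 in M2 CM and 1148 to 1203 in TAM CM, against 2505 to 2651 in M0 CM. Collagens made up most of it, and the members went both ways: Col1a1, Col1a2, Col3a1 and Pdgfrb fell in all 3 media against M0 CM, Dcn rose in all 3 (4.41-fold in M1 CM and 5.95-fold in TAM CM), Pdgfra rose in M1 CM and TAM CM and fell in M2 CM, and Lum and Thy1 had no count. Their part in the results was not tested. Basal cell genes of squamous epithelium were nearly absent or low in these cells. Over all 12 libraries Krt5 had 2 counts and Krt14 had 10, and the basal cell factor Trp63 averaged at most 1.79 CPM, in M0 CM. Sprr1a, a gene of the squamous cornified envelope, was detected in all 4 media, with levels given further on. Of epithelial genes not particular to squamous cells, Cdh1 had 10 counts and Epcam had none. Simple keratins were present, with Krt8 at 129 ± 1.52 CPM in M1 CM, 453 ± 20.5 in M2 CM, 63.6 ± 2.27 in TAM CM and 267 ± 8.57 in M0 CM (mean ± SD, n = 3 each). The basal keratins thus go against the squamous label, and the cells are called SCC7 cells here.

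Of the 10 markers, 5 passed the expression filter (Cd44, Bmi1, Klf4, Sox9 and Sox2), 3 had a few counts (Aldh1a3, Prom1 and Aldh1a1), and 2 had none (Pou5f1 and Nanog). Set beside each other per length of exon sequence, Cd44 was the most abundant in every medium, at 53.6 ± 1.39 RPKM in M1 CM, 48.9 ± 1.14 in M2 CM, 44.7 ± 2.17 in TAM CM and 44.3 ± 0.616 in M0 CM. RPKM here is CPM per kilobase of all annotated exons, which understates genes that use only a few of those exons. Bmi1 came second in M0 CM at 37.2 ± 0.920 RPKM, ahead of Klf4 at 12.9 ± 0.875, Sox9 at 11.6 ± 0.0980 and Sox2 at 5.84 ± 0.521. In M1 CM and TAM CM Klf4 stood second instead. It was at 48.6 ± 0.804 RPKM in M1 CM and 37.9 ± 0.960 in TAM CM, above Bmi1 at 29.4 ± 2.35 in M1 CM and 25.9 ± 0.262 in TAM CM.

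All 5 tested markers passed the test in M1 CM against M0 CM, where Klf4, Sox2 and Cd44 rose and Sox9 and Bmi1 fell. In bulk RNA, fewer cells with a marker and less of its RNA per cell cannot be told apart. In that comparison 53.4% of all genes tested were called, 27.7% higher and 25.6% lower. In M2 CM against M0 CM 1 of the 5 was called, a rise of Cd44, against 39.4% of all genes, 21.0% higher and 18.5% lower. In TAM CM against M0 CM 4 of the 5 were called, with Klf4 and Sox9 higher and Sox2 and Bmi1 lower, against 70.0% of all genes, 35.1% higher and 34.9% lower. Directly between the other media, all 5 were called in each pair. In M2 CM over M1 CM 2 were higher and 3 lower, where 56.2% of all genes were called, 27.8% higher and 28.4% lower. In TAM CM over M1 CM 1 was higher and 4 lower, beside 67.2% of genes, 32.8% higher and 34.4% lower. In TAM CM over M2 CM 2 were higher and 3 lower, beside 68.4% of genes, 34.3% higher and 34.1% lower. Libraries of the paired groups did not overlap for 5 markers in M1 CM against M0 CM (58.8% of all genes), 2 in M2 CM (49.5%) and 4 in TAM CM (73.1%). Nor did they for all 5 in M2 CM over M1 CM (59.8%), TAM CM over M1 CM (69.5%) and TAM CM over M2 CM (71.3%). With so many genes called, a call for 1 of 5 markers says little by itself, and sizes are given with each. Under library sizes with no scaling factors, the split over all genes became 3219 higher and 4626 lower in M1 CM against M0 CM, beside 4023 and 3719, and 2201 higher and 3653 lower in M2 CM against M0 CM, beside 3042 and 2681. The comparisons against M0 CM share its 3 libraries, so they are not independent of each other.

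**Figure D1:**
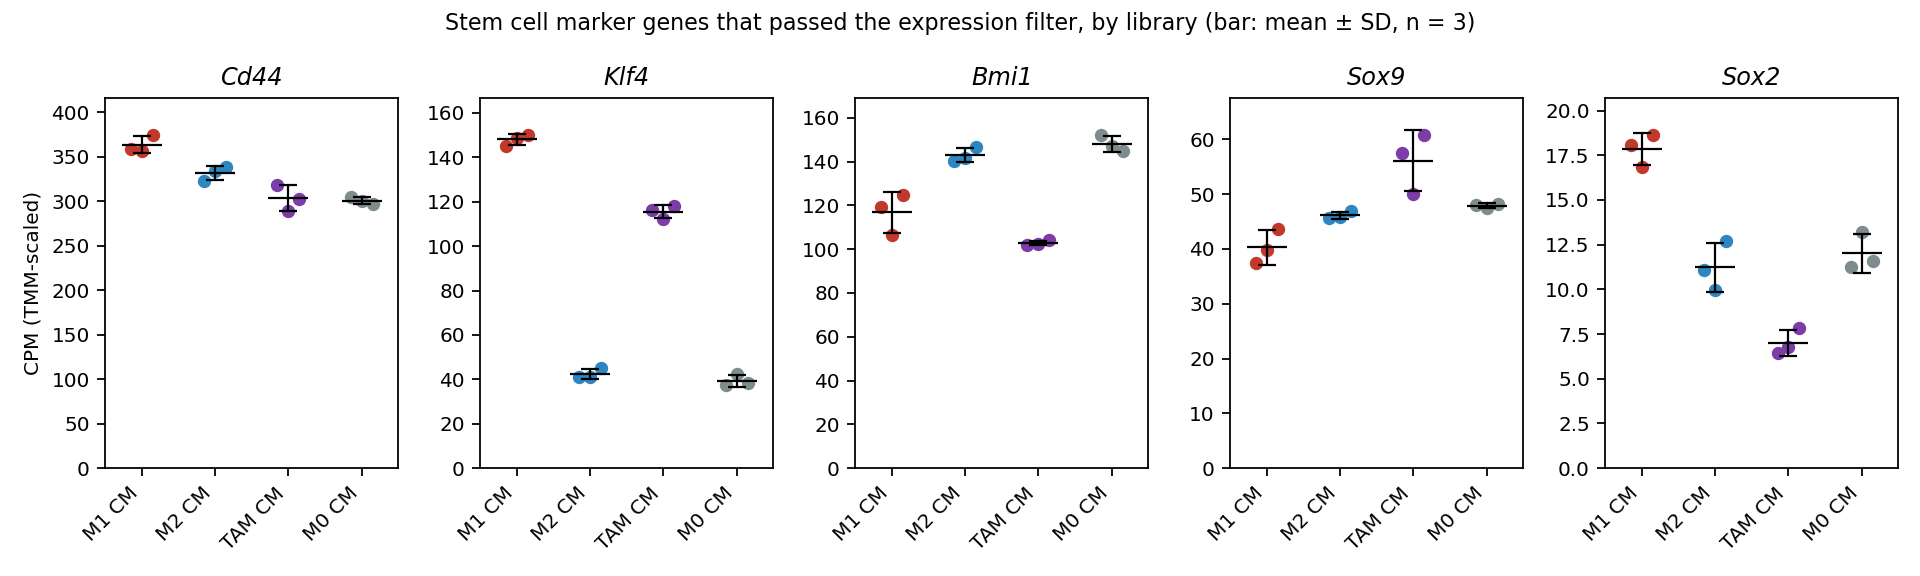
CPM on TMM-scaled library sizes (y axes, from 0) of the 5 markers that passed the expression filter, in each library (points) with mean ± SD of n = 3 (bars), by medium. Klf4 stands between 145 and 150.0 CPM in M1 CM and between 112 and 118 in TAM CM, with every M2 CM and M0 CM library at or below 45.1.

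The promoter windows of the tested markers are shown first because these genes moved in different directions in the same media. RefSeq (GRCm38.p6) gives a window of 300 bases, 250 before and 50 after the transcription start, for 4 of the 5: Klf4 at chr4:55532426-55532725 on the minus strand, Sox2 at chr3:34649745-34650044 on the plus strand, Bmi1 at chr2:18676768-18677067 on the plus strand and Cd44 at chr2:102901616-102901915 on the minus strand. Sox9 is named only. The Sox2 window ends before base 34650405, where the GENCODE annotation used here for gene positions and exon lengths starts Sox2. RefSeq and GENCODE thus place the start of Sox2 differently. Capitals mark matches, on either strand, to any of 7 short motifs, which overlap one another in places. The motifs searched were the STAT site GAS (TTCNNNGAA), the core of the interferon-stimulated response element or ISRE (GAAA, any 2 bases, GAAA), an NF-kB pattern (GGG, any 5 bases, CC), AP-1 (TGANTCA), the E-box bound by MYC proteins (CACGTG), the GC box (GGGCGG) and a CACCC box of the kind KLF proteins bind (CCACCC).
Klf4: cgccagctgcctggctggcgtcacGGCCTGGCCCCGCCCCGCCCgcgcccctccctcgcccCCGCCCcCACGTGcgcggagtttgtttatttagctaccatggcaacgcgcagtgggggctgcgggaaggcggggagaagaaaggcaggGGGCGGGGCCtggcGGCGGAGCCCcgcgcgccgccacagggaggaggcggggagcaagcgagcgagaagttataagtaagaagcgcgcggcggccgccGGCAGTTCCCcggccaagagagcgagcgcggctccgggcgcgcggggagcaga
Sox2: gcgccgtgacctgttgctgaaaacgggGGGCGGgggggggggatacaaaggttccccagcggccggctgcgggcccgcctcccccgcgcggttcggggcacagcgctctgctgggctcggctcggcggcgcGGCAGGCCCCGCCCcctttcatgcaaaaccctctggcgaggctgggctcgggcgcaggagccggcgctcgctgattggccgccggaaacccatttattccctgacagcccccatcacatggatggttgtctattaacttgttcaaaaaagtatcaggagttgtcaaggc
Bmi1: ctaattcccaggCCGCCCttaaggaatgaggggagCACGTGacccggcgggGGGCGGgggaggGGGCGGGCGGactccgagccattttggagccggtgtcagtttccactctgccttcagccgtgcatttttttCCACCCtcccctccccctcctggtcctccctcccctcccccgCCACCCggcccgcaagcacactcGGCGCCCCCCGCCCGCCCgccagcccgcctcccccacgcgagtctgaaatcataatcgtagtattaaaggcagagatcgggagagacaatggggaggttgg
Cd44: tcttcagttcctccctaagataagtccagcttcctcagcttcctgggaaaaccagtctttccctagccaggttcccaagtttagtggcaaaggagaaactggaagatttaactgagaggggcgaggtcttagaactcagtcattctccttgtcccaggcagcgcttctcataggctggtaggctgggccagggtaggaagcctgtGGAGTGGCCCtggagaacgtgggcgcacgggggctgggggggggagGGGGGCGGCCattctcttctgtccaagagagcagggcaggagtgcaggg

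None of the 4 windows held the GAS, ISRE or AP-1 letters, which 8.3%, 3.44% and 7.81% of all 32851 windows in the table held. The E-box was present in the Klf4 window, at position -182 from the start site, and in the Bmi1 window, at position -215, and in 7.15% of all windows. All 4 windows held the NF-kB letters, with 5 matches for Klf4, as did 50.8% of all windows. GC boxes were found in all 4, with 6 in the Bmi1 window and 4 in the Klf4 window, and in 35.7% of all windows. The CACCC box was found in the Bmi1 window alone of the 4 and in 31.5% of all windows. The Klf4 window was 74.3% G and C, and the Cd44 window 58.0%, against a median of 52.7% over all windows. Such matches are letters in a window and show no binding.

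Klf4 had the largest fold change of the 5 tested markers in M1 CM and in TAM CM, each against M0 CM. It encodes a zinc finger transcription factor of epithelial differentiation that is also one of the reprogramming factors (ENSMUSG00000003032, chromosome 4, 55527143 to 55532466 in mm10, minus strand). Its CPM was 145, 149 and 150.0 in M1 CM, 40.9, 41.0 and 45.1 in M2 CM, 116, 112 and 118 in TAM CM, and 37.3, 42.3 and 38.3 in M0 CM. The M1 CM libraries lay above all others and the TAM CM libraries above those of M2 CM and M0 CM, which overlapped each other. Klf4 rose 3.77-fold in M1 CM over M0 CM (log2 fold change 1.92, SE 0.046, edgeR adjusted p = 1.42e-36), a change exceeded in size by 3.46% of all genes tested. It rose 2.94-fold in TAM CM over M0 CM (1.56, SE 0.047, adjusted p = 1.32e-32). TAM CM stood below M1 CM, at 0.780-fold (adjusted p = 9.88e-11).

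Between M2 CM and M0 CM the Klf4 difference was 1.08-fold (log2 0.11, SE 0.052, edgeR adjusted p = 0.0863). That call depended on 1 library, since without the second M0 CM library it reached an adjusted p of 0.0167. In order, the Klf4 level was M1 CM, TAM CM, M2 CM and M0 CM, and the last pair missed the adjusted threshold, with a 95% interval of the ratio from 1.01 to 1.16. The summed level of 13 macrophage markers was also higher in the same media, from 33.7 to 39.85 CPM in M1 CM and 41.0 to 50.5 in TAM CM, against 22.5 to 24.9 in M2 CM and 22.8 to 24.0 in M0 CM. Cd14 made up most of that sum and rose 1.498-fold in M1 CM and 2.35-fold in TAM CM over M0 CM. Mrc1 rose 3.78-fold in M1 CM (edgeR adjusted p = 1.83e-07) and 2.77-fold in M2 CM, and Cd68 rose 1.80-fold in M1 CM (adjusted p = 1.27e-05) and fell to 0.738-fold in TAM CM. Lyz2, the last of the 4 that could be tested, did not pass against M0 CM. Over all 12 libraries Csf1r had 84 counts and Ptprc, the pan-leukocyte gene, had 17, while C1qa, C1qb, C1qc and Tyrobp had none. The part of these genes in the Klf4 result was not tested.

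Of 14 other KLF genes on the list, 9 could be tested. Klf15 passed the filter only through M1 CM and TAM CM, where it is high, and is left out of the counts that follow, a choice made after its values were seen. In TAM CM against M0 CM the other 8 were all higher, with a median log2 fold change of 0.89, where 35.1% of all genes were higher and their median was 0.00086. In M1 CM 4 of the 8 were higher and 1 lower (median 0.22), beside 27.7% and 25.6% of all genes (median 0.012). In M2 CM 2 were higher and 3 lower (median -0.018), beside 21.0% and 18.5% of all genes (median -0.0035). Klf6, an early response factor of the family, was at 135 ± 7.38 CPM in M1 CM, 102 ± 1.17 in M2 CM, 205 ± 8.80 in TAM CM and 90.1 ± 2.24 in M0 CM, and rose in all 3 media against M0 CM. Klf9, a glucocorticoid-responsive repressor, rose to 30.0 ± 3.41 CPM in M1 CM and 74.9 ± 2.33 in TAM CM, against 13.0 ± 1.82 in M0 CM. Klf7 rose to 103 ± 4.66 CPM in M1 CM and 146 ± 4.59 in TAM CM and fell to 66.8 ± 4.52 in M2 CM, against 78.8 ± 3.12 in M0 CM. Klf4 itself was thus higher in M1 CM than in TAM CM, whereas all 8 of these genes were higher in TAM CM than in M1 CM by the same test, where 32.8% of all genes were.

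Klf5, a proliferative counterpart of Klf4 in epithelia that stood on the list of pluripotency factors, rose to 32.9 ± 3.78 CPM in M1 CM, 24.8 ± 1.99 with M2 CM and 105 ± 4.65 with TAM CM, against 20.8 ± 1.52 in M0 CM. Klf2, on that same list, went the other way from Klf4 in M1 CM, at 0.443-fold of M0 CM (edgeR adjusted p = 0.00113). It rose 2.91-fold in TAM CM (adjusted p = 7.13e-08) and did not pass in M2 CM (adjusted p = 0.104). Klf15 itself had 58 counts in M1 CM, 2 with M2 CM and 101 with TAM CM over the 3 libraries of each, against 3 in M0 CM.

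**Figure D2:**
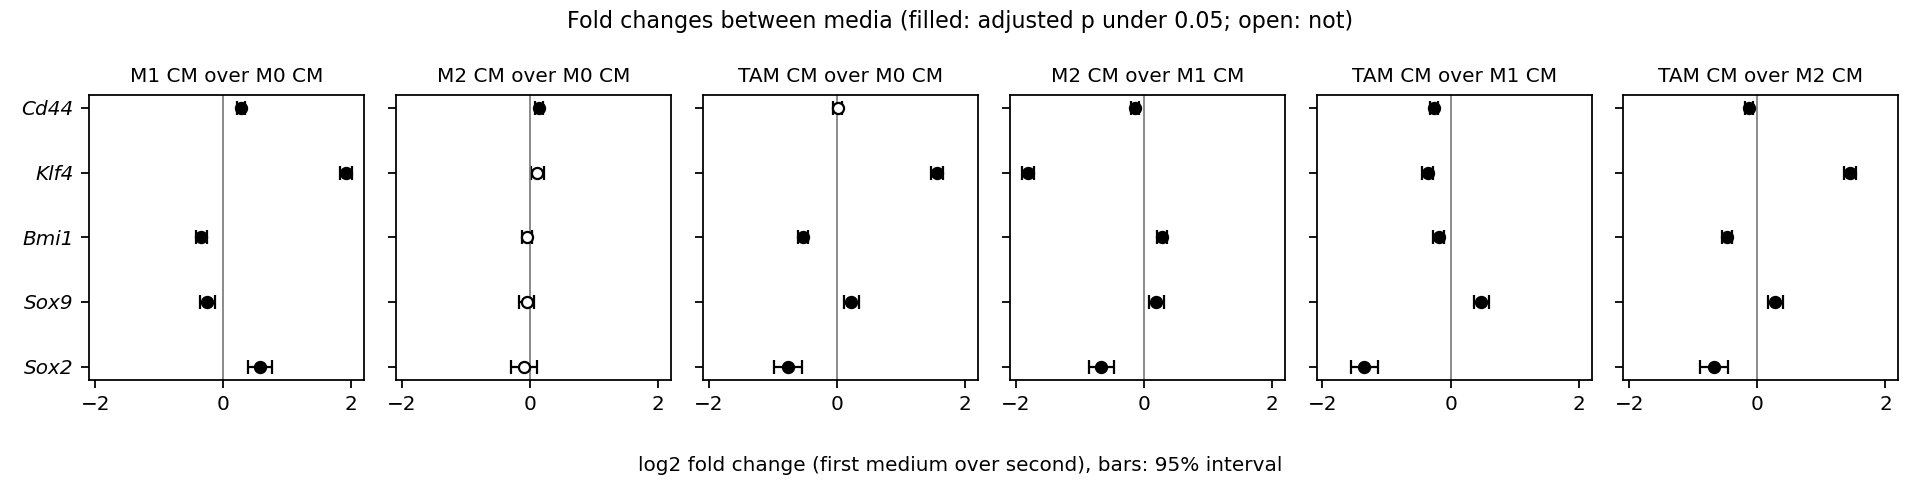
Fitted log2 fold change between each pair of media (x axes, first medium over second) for the 5 tested markers (rows), with bars of the 95% interval. Filled points passed an adjusted p under 0.05 and open points did not. Klf4 reaches 1.92 and 1.56 in M1 CM and TAM CM over M0 CM, and Sox2 reaches -1.34 in TAM CM over M1 CM.

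Sox2, an HMG-box factor of pluripotency and of squamous progenitors (ENSMUSG00000074637, chromosome 3, 34650405 to 34652461, plus strand), changed in opposite directions in M1 CM and TAM CM. Its CPM was 18.1, 16.8 and 18.6 in M1 CM, 11.1, 9.98 and 12.7 in M2 CM, 6.44, 6.78 and 7.84 in TAM CM, and 11.2, 13.2 and 11.6 in M0 CM. All M1 CM libraries lay above and all TAM CM libraries below the other groups, while M2 CM and M0 CM overlapped. Sox2 rose 1.49-fold in M1 CM over M0 CM (log2 0.57, SE 0.098, edgeR adjusted p = 1.8e-06) and fell to 0.586-fold in TAM CM over M0 CM (log2 -0.77, SE 0.11, adjusted p = 3.17e-08). Tested directly, TAM CM stood at 0.394-fold of M1 CM (log2 -1.34, SE 0.11, adjusted p = 7.8e-16), a change exceeded in size by 9.34% of genes.

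The Sox2 level in M2 CM was 0.939-fold that in M0 CM (edgeR adjusted p = 0.525) and lower than that in M1 CM (0.631-fold, adjusted p = 9.94e-08). The order was therefore M1 CM, then M0 CM and M2 CM without a difference beyond their spread, then TAM CM. Sox2 lies within the bounds of the long noncoding RNA gene Sox2ot on the same strand, and shares no exon base with it. Sox2ot had 9 counts over all 12 libraries, so its own RNA was close to the detection limit while Sox2 had between 118 and 402 counts a library.

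Sox9, an HMG-box factor of progenitors in hair follicle, gut and cartilage (ENSMUSG00000000567, chromosome 11, 112782224 to 112787760, plus strand), ran the other way from Sox2 in M1 CM and TAM CM. Its CPM was 37.3, 39.8 and 43.6 in M1 CM, 45.7, 45.7 and 46.9 in M2 CM, 57.5, 50.0 and 60.8 in TAM CM, and 48.1, 47.4 and 48.2 in M0 CM. No pair of groups overlapped, and the second TAM CM library stood closest to M0 CM. Sox9 fell to 0.839-fold in M1 CM (log2 -0.25, SE 0.060, edgeR adjusted p = 0.000375) and rose 1.17-fold in TAM CM (log2 0.22, SE 0.058, adjusted p = 0.00067), each over M0 CM. TAM CM was 1.39-fold M1 CM (adjusted p = 1.47e-09).

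These Sox9 differences were small against the rest of the genes, as 49.3% of genes in M1 CM and 73.0% in TAM CM moved further from M0 CM. In M2 CM over M0 CM Sox9 was at 0.962-fold and was not called (adjusted p = 0.492). Its 1.15-fold higher level in M2 CM over M1 CM (adjusted p = 0.00472) was not called without the first M1 CM library (adjusted p = 0.059). The order was TAM CM, M0 CM, M2 CM and M1 CM, with the middle pair not told apart by the test.

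Of 16 other SOX genes on the list, 9 had no count in any library and 3 could be tested, all of which were called in TAM CM over M0 CM, where 70.0% of all genes were. Sox4, which is active in many progenitors and carcinomas, rose to 203 ± 12.6 CPM in M1 CM and 642 ± 40.8 in TAM CM, against 128 ± 4.19 in M0 CM, and was at 132 ± 5.85 in M2 CM without passing. Sox21, an antagonist of the SOX2 group in neural cells, fell to 9.48 ± 1.19 CPM in M1 CM and 6.36 ± 0.927 in TAM CM, against 21.7 ± 0.402 in M0 CM. Sox5, a partner of Sox9 in cartilage, fell to 0.102 ± 0.0541 CPM in TAM CM, against 2.34 ± 0.242 in M0 CM. It passed the filter only through the other media, which favours such a fall, so its call in TAM CM is not read as a result. Sox21 was thus lower in both M1 CM and TAM CM, where Sox2 itself parted.

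Bmi1 encodes a subunit of Polycomb repressive complex PRC1 (ENSMUSG00000026739, chromosome 2, 18677018 to 18686629, plus strand) and fell in M1 CM and in TAM CM. Its CPM was 119, 107 and 125 in M1 CM, 140.4, 142 and 147 in M2 CM, 102, 102 and 104 in TAM CM, and 152, 147 and 145 in M0 CM. M1 CM and TAM CM lay below M2 CM and M0 CM without overlap, and M2 CM and M0 CM overlapped. Bmi1 fell to 0.790-fold in M1 CM (log2 -0.34, SE 0.040, edgeR adjusted p = 5.08e-10) and to 0.694-fold in TAM CM (log2 -0.53, SE 0.041, adjusted p = 5.18e-16) over M0 CM. TAM CM stood at 0.879-fold of M1 CM (adjusted p = 0.000118), and M2 CM at 0.965-fold of M0 CM (adjusted p = 0.327).

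The rest of the Polycomb group was mixed, with all 22 of its listed genes tested. In M1 CM against M0 CM 8 were higher and 9 lower (median log2 -0.035), beside 27.7% and 25.6% of all genes. In M2 CM 6 were higher and 5 lower (median -0.023, mean 0.030), beside 21.0% and 18.5%. In TAM CM 13 were higher and 7 lower (median 0.21), beside 35.1% and 34.9%, and Bmi1 was lower there. Its catalytic partners in PRC1 parted from it in TAM CM, and Ring1 did so in M1 CM too. Ring1 rose to 30.6 ± 1.90 CPM in M1 CM and 36.1 ± 0.543 in TAM CM, against 25.3 ± 0.974 in M0 CM. Rnf2 (RING1B) fell to 36.1 ± 3.22 CPM in M1 CM but rose to 64.6 ± 3.89 in TAM CM, against 48.4 ± 1.65 in M0 CM. Rybp, found in variant PRC1 complexes, rose in M2 CM (49.2 ± 2.96 CPM) and TAM CM (46.6 ± 1.25), against 23.4 ± 0.894 in M0 CM, and was at 21.7 ± 1.17 in M1 CM without passing. Cbx6 fell in all 3 media, to 162 ± 5.16 CPM in M1 CM, 231 ± 2.83 with M2 CM and 181 ± 5.80 with TAM CM, against 254 ± 4.87 in M0 CM.

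**Figure D3:**
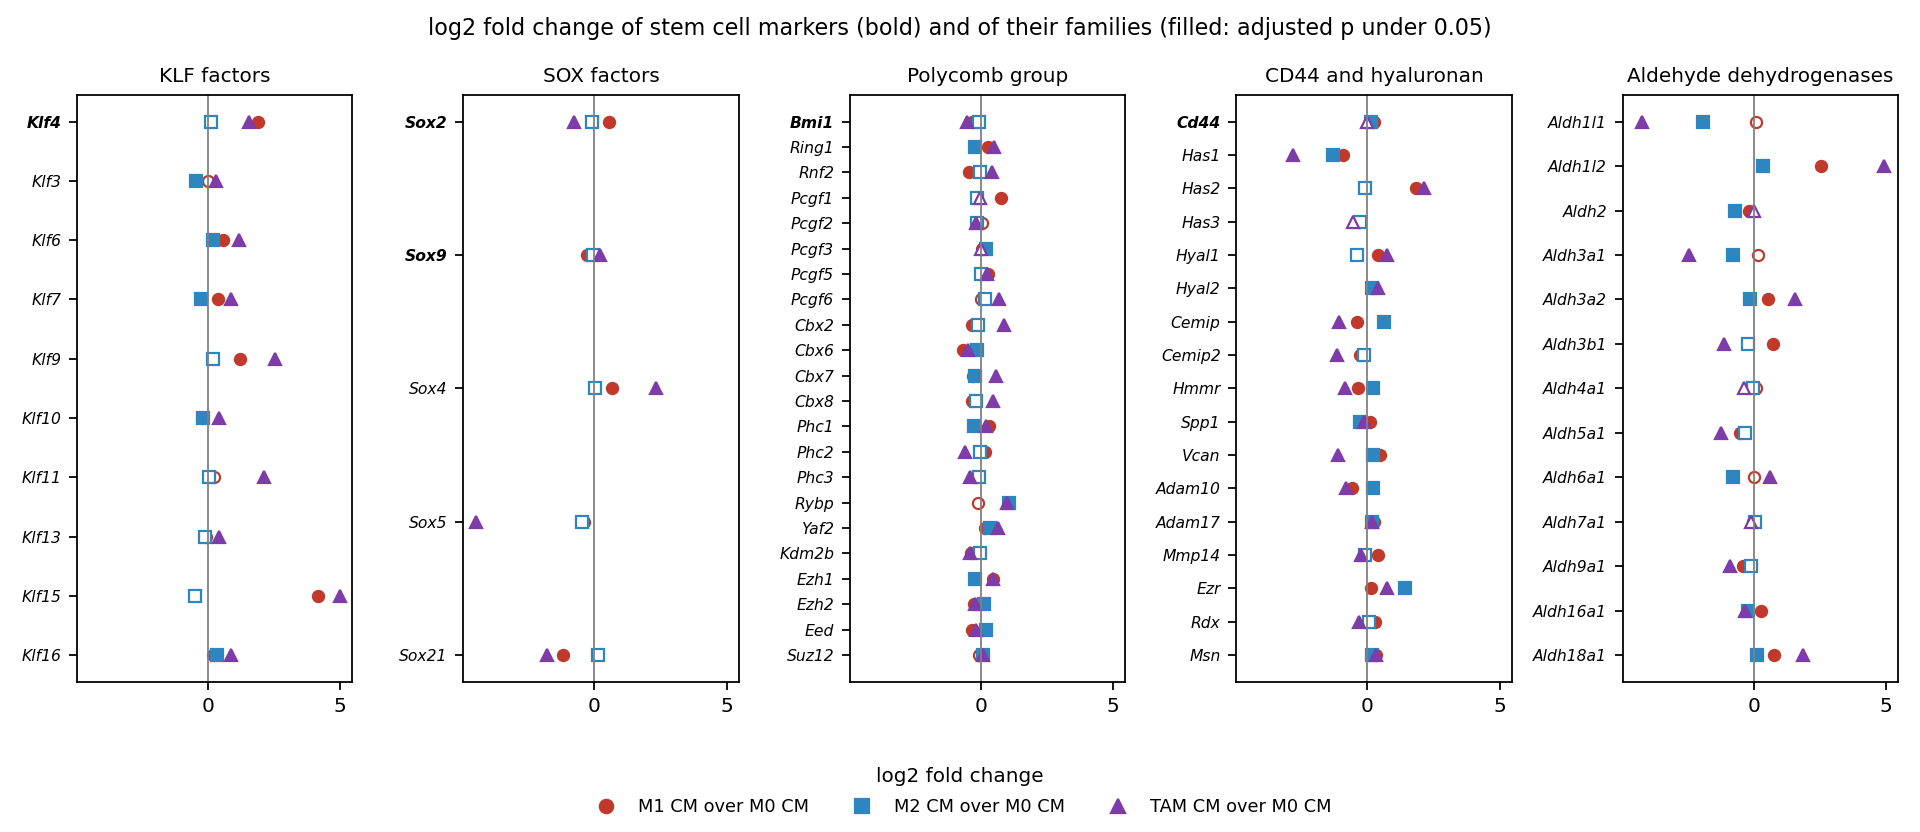
log2 fold change (x axes) of tested genes (rows) over M0 CM, for M1 CM (circles), M2 CM (squares) and TAM CM (triangles), with markers in bold above the other genes of their family or pathway. Filled symbols passed an adjusted p under 0.05. The other KLF genes lie to the right of 0 in TAM CM, the Polycomb genes lie on both sides, and the aldehyde dehydrogenase panel holds none of the markers, since neither Aldh1a1 nor Aldh1a3 passed the filter.

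Cd44 encodes the hyaluronan receptor of many stem-like carcinoma cells (ENSMUSG00000005087, chromosome 2, 102811141 to 102901665, minus strand) and was the most abundant of the markers, with changes of at most 1.21-fold. Its CPM was 359, 357 and 374 in M1 CM, 323, 334 and 338 in M2 CM, 318, 289 and 302 in TAM CM, and 305, 299.85 and 296 in M0 CM. M1 CM lay above M2 CM, and M2 CM above the other media, while the M0 CM libraries fell inside the range of TAM CM. Cd44 rose 1.21-fold in M1 CM (log2 0.27, SE 0.033, edgeR adjusted p = 8.51e-10) and 1.10-fold in M2 CM (log2 0.14, SE 0.033, adjusted p = 0.000486) over M0 CM. Changes at least as large as that in M1 CM were common, as 46.1% of all genes moved further.

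In TAM CM the Cd44 level was 1.01-fold that in M0 CM (log2 0.013, SE 0.034, edgeR adjusted p = 0.747, 95% interval of the ratio 0.964 to 1.06). With library sizes alone this became -0.085 on the log2 scale (adjusted p = 0.0176), and without the first TAM CM library -0.025 (adjusted p = 0.554). TAM CM was at 0.834-fold of M1 CM (adjusted p = 1.77e-09) and 0.914-fold of M2 CM (adjusted p = 0.000636). The counts are per gene and do not separate the standard from the variant isoforms of Cd44, of which 9 transcripts are annotated. Esrp1, the splicing factor that favours variant Cd44 in epithelia, had 2 counts over all 12 libraries.

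The list of 18 genes around CD44 holds enzymes and binders of its ligand hyaluronan, and also its other ligand Spp1, its cytoskeletal linkers Ezr, Rdx and Msn, the sheddases Adam10, Adam17 and Mmp14, and the splicing factors Esrp1 and Esrp2. Of these, 16 were tested against M0 CM. In M1 CM 10 were higher and 5 lower (median log2 0.18), beside 27.7% and 25.6% of all genes. In M2 CM 8 were higher and 2 lower (median 0.12), beside 21.0% and 18.5%. In TAM CM 6 were higher and 9 lower (median -0.26), beside 35.1% and 34.9%. Has2, the main hyaluronan synthase, rose to 20.0 ± 1.24 CPM in M1 CM and 24.2 ± 1.39 in TAM CM, against 5.49 ± 0.378 in M0 CM, and was at 5.24 ± 0.256 in M2 CM without passing. Vcan, a proteoglycan that binds hyaluronan, rose to 466 ± 14.5 CPM in M1 CM and 390.4 ± 5.58 in M2 CM but fell to 156 ± 7.53 in TAM CM, against 331 ± 2.60 in M0 CM. Cemip, which breaks hyaluronan down, rose to 197 ± 10.5 CPM in M2 CM and fell to 98.0 ± 2.64 in M1 CM and 60.8 ± 0.967 in TAM CM, against 126 ± 8.04 in M0 CM. Hmmr, a hyaluronan receptor that also serves the mitotic spindle, followed the same order, at 122 ± 3.14 CPM in M1 CM, 178 ± 3.44 in M2 CM, 85.6 ± 1.39 in TAM CM and 154 ± 1.68 in M0 CM.

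Aldh1a3 was the one aldehyde dehydrogenase marker with more than a handful of counts. It makes retinoic acid from retinaldehyde and accounts for much of the ALDH activity of human breast cancer stem cells (ENSMUSG00000015134, chromosome 7, 66390890 to 66427517, minus strand). It had 9, 4 and 5 counts in M1 CM, 0, 2 and 1 in M2 CM, 8, 15 and 8 in TAM CM, and 1, 4 and 0 in M0 CM. TAM CM did not overlap M2 CM or M0 CM, and M1 CM met M0 CM at 4 counts. The count ratio was 6.64 in TAM CM over M0 CM (exact 95% interval 2.56 to 21.9) and 3.705 in M1 CM over M0 CM (1.33 to 12.8). These intervals cover counting error only. Aldh1a3 did not pass the filter, and in an edgeR fit of the 28399 genes with at least 1 count its adjusted p was 0.00235 for TAM CM and 0.102 for M1 CM over M0 CM. In that fit TAM CM also exceeded M2 CM (ratio 10.75, interval 3.35 to 54.95, adjusted p = 0.000425), and M2 CM was below M1 CM (ratio 0.167, interval 0.0315 to 0.571, adjusted p = 0.0276). Its mean stayed at or under 0.507 CPM, in TAM CM.

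Aldh1a1, the ALDH1 enzyme most often assayed in tumours (ENSMUSG00000053279, chromosome 19, 20492715 to 20643465, plus strand), had no count in M1 CM, 0, 2 and 0 in M2 CM, 2, 0 and 1 in TAM CM, and 1, 2 and 2 in M0 CM. With a floor of 3 counts put in place of 0 over the M1 CM libraries, M0 CM stood 1.62-fold above M1 CM. That figure takes the M0 CM counts as exact and is no lower bound, and the edgeR fit without a filter gave an adjusted p of 0.142. Its near copy Aldh1a7 and the related Aldh1a2 had no count in any library. Prom1, which encodes the membrane protein CD133 (ENSMUSG00000029086, chromosome 5, 43993620 to 44102032, minus strand), had 2, 3 and 2 counts in M1 CM and 1 count in the second TAM CM library. It had none in M2 CM or in M0 CM. The antisense gene Gm16401, which shares 424 exon bases with Prom1, had no count. Against the same floor in M0 CM, M1 CM stood 2.40-fold above it, with the M1 CM counts again taken as exact. The edgeR adjusted p was 0.0773 in the fit without a filter.

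Pou5f1 (ENSMUSG00000024406, chromosome 17, 35506018 to 35510772, plus strand) and Nanog (ENSMUSG00000012396, chromosome 6, 122707489 to 122714633, plus strand), the homeodomain factors of pluripotent cells, had no count in any of the 12 libraries. A count of 0 allows up to 3 counts, which is 0.128 to 0.164 CPM in a library and 0.0120 CPM over all 12. An antisense gene, Gm19553, covers 317 of the 2248 exon bases of Pou5f1 and also had no count. A count of 0 in this table can also occur for a gene that cells use, since Mrpl53, a mitochondrial ribosomal protein gene chosen after its value was seen, had none either.

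**Figure D4:**
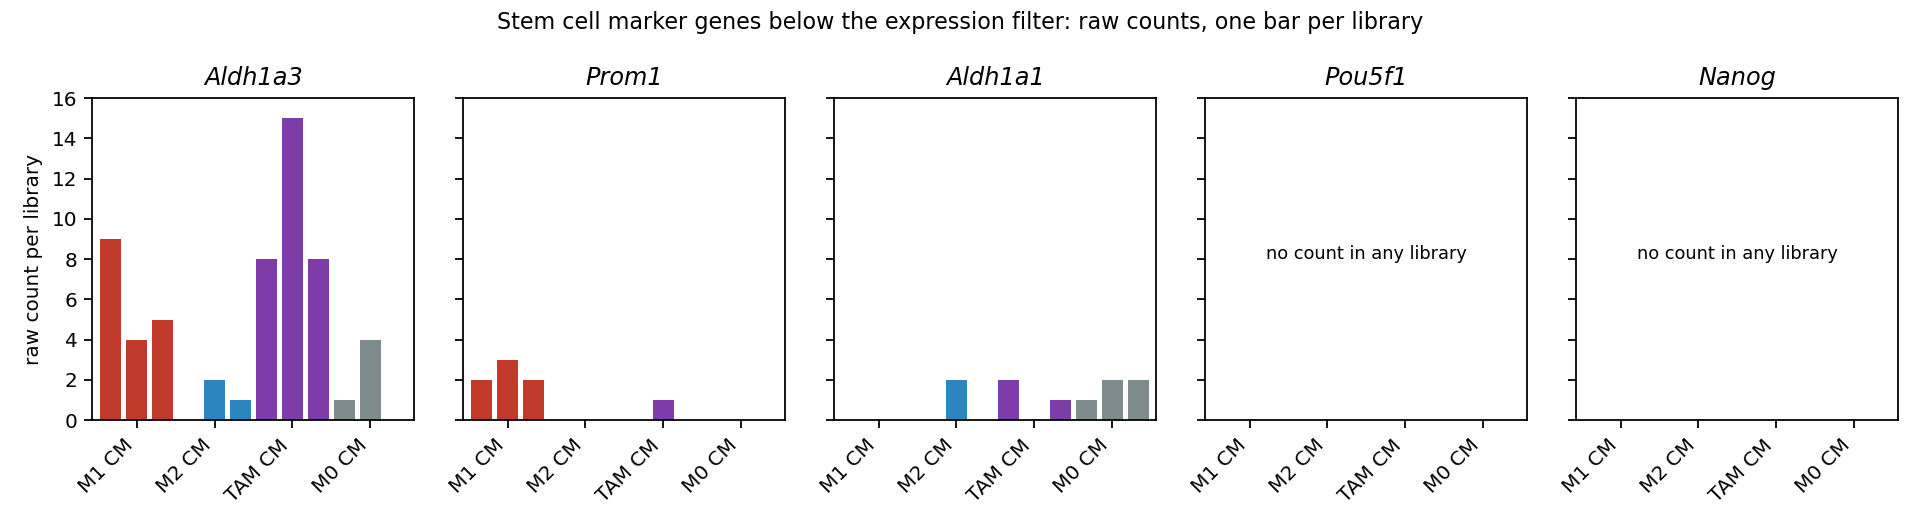
Raw counts (y axis, shared) of the 5 markers below the expression filter, with 1 bar for each library, grouped by medium. Aldh1a3 reaches 15 counts in TAM CM and 9 in M1 CM, Prom1 and Aldh1a1 stay at or below 3, and Pou5f1 and Nanog have none.

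The wider set of pluripotency and reprogramming factors was likewise mostly silent, as 10 of 19 had no count in any library, among them Sall4, Lin28a and Zfp42. Of the 6 that could be tested, Tfcp2l1 passed the filter only through TAM CM, where it is high, and is left out of the counts after its values were seen. Of the other 5, 3 were higher and 1 lower in M1 CM over M0 CM (median log2 0.62), beside 27.7% and 25.6% of all genes. In M2 CM 2 were higher (median 0.25), beside 21.0%, and in TAM CM 3 were higher and 1 lower (median 1.54), beside 35.1% and 34.9%. Myc, the reprogramming factor that drives growth and biosynthesis, rose to 182 ± 7.45 CPM in M1 CM, 209 ± 7.57 with M2 CM and 843 ± 24.1 with TAM CM, against 111 ± 6.20 in M0 CM. Tfcp2l1, a factor of naive pluripotency and of kidney and salivary ducts, had 238 counts in TAM CM, against 3 in M0 CM, with 5 in M1 CM and 1 in M2 CM. Lin28b, an inhibitor of let-7 processing, did not pass against M0 CM in any medium, at 2.42 ± 0.150 CPM in M1 CM, 2.12 ± 0.327 in M2 CM, 1.51 ± 0.518 in TAM CM and 1.97 ± 0.391 in M0 CM. Of the 4 classical reprogramming factors, Klf4 and Myc were thus higher in TAM CM while Sox2 was lower and Pou5f1 had no count.

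Of 23 other surface and progenitor markers, 18 were tested against M0 CM. In M1 CM 5 were higher and 11 lower (median log2 -0.22, mean 0.13), beside 27.7% and 25.6% of all genes. In M2 CM 1 was higher and 8 lower (median -0.16), beside 21.0% and 18.5%, and in TAM CM 4 were higher and 10 lower (median -0.26), beside 35.1% and 34.9%. Procr, the protein C receptor that marks progenitors in mammary gland and blood, rose to 50.4 ± 2.87 CPM in M1 CM, 37.6 ± 1.74 with M2 CM and 123 ± 7.50 with TAM CM, against 31.9 ± 0.300 in M0 CM. Lrig1, an inhibitor of EGF receptor signalling found in quiescent epidermal stem cells, fell to 117 ± 6.94 CPM in M1 CM, 137 ± 2.26 with M2 CM and 74.4 ± 1.75 with TAM CM, against 174 ± 8.45 in M0 CM. Itgb4, a hemidesmosome integrin of basal keratinocytes, fell to 20.3 ± 1.37 CPM in M1 CM, 21.1 ± 1.25 with M2 CM and 8.53 ± 0.965 with TAM CM, against 41.6 ± 1.70 in M0 CM.

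A pair of further genes was picked after their values were seen. Ly6a, which encodes the mouse progenitor marker SCA-1 and is also induced by interferons, rose to 353 ± 31.5 CPM in M1 CM, against 2.17 ± 0.680 in M0 CM (log2 7.32, edgeR adjusted p = 5.61e-11), and fell to 0.423 ± 0.343 in TAM CM. Its family has near copies that may share reads with it. Ly6a passed the filter through media other than TAM CM, which favours its fall there, and that fall is among those counted above. Cd34, a sialomucin of blood and hair follicle progenitors, was high in every medium, at 1051 ± 4.19 CPM in M1 CM, 1383 ± 29.3 in M2 CM, 1543 ± 6.03 in TAM CM and 1476 ± 18.3 in M0 CM.

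Across the 12 libraries, the genes whose log2 CPM ran closest to each tested marker by Pearson's r were the following, as a description with no test, in libraries that fall into 4 groups. For Klf4 they were Ifi203 (r = 0.996), an interferon-inducible gene of a multi-copy family, Grina (0.995) and Zdhhc18 (0.994). Grina, for example, averaged 339 CPM in M1 CM, 158 in M2 CM, 303 in TAM CM and 163 in M0 CM. For Sox2 they were Dab2 (0.980), an endocytic adaptor, Dennd4b (0.979) and Sgsm2 (0.976), with Dab2 averaging 557 CPM in M1 CM, 417 in M2 CM, 282 in TAM CM and 406 in M0 CM. For Sox9 the closest were Zic2 (0.952), Ppp4r1 (0.950) and the Hedgehog receptor gene Ptch1 (0.950). Ptch1 averaged 26.1 CPM in M1 CM, 35.1 in M2 CM, 53.5 in TAM CM and 35.1 in M0 CM.

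For Bmi1 the nearest were Copb2 (r = 0.986), a coatomer subunit, Pacs1 (0.984) and Mum1l1 (0.982). Cd44 had Atp6v0e (0.956), Aifm2 (0.953) and Socs3 (0.944), with the feedback inhibitor Socs3 averaging 76.1 CPM in M1 CM, 44.8 in M2 CM, 31.1 in TAM CM and 33.6 in M0 CM. Among the markers themselves r was -0.87 for Klf4 with Bmi1, -0.84 for Sox2 with Sox9 and 0.72 for Cd44 with Sox2. The nearest genes were picked as the highest r over the tested genes, so their values cannot be set against those between markers.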

How the data were processed

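The authors deposited raw read counts per Ensembl gene for 12 libraries, with no scaling. Per the submitters' processing notes, the tool listed is HISAT2 2.0 and the build mm10. How reads were counted, on which annotation and with what strand setting, is not stated there, so antisense and overlapping genes cannot be told apart, and reads of near copies may be split or lost. Identifiers were matched to GENCODE M21 (GRCm38), 55227 of 55487, which gave symbols, coordinates and exon lengths.

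All 12 libraries entered a single edgeR 4.0.16 model (R 4.3.3) of 4 group means, with TMM scaling, robust glmQLFit and glmQLFTest. The filterByExpr step left 14509 genes, and those removed held 0.0815% of counts. Benjamini-Hochberg adjustment covered every gene in the fit. SE was derived as the absolute log2 fold change divided by the root of F. Between 18.3 and 23.5 counts make 1 CPM. Alternatives were DESeq2 1.42.0, its size factors, library sizes alone, other filters, fits of 2 groups, the replicate number as a block and each library left out. The steps were tested on simulated data. Log2 CPM for correlations used a prior count of 2. Figures were drawn with matplotlib 3.10.9.

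The markers and lists were chosen with earlier results of these data known. Named list genes are the 3 per list with the smallest F test p over the 3 media against M0 CM, plus genes adjoining a marker in function, and the 3 nearest patterns leave out predicted genes. The values of 1 listed gene are not reported here.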

Additional observations from a re-analysis of the deposited data

How the results depend on the processing

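Of 390 marker fold changes under 19 alternative settings, 385 kept their direction and their side of the threshold. Cd44 in TAM CM over M0 CM turned to -0.085 (log2) with library sizes alone and to -0.025 without the first TAM CM library, the cause not being tested, and ran up to 0.047 without the second. Bmi1 in M2 CM over M0 CM passed with library sizes alone (log2 -0.11, adjusted p = 0.028), Klf4 in M2 CM over M0 CM passed without the second M0 CM library (0.17), and Sox9 in M2 CM over M1 CM did not pass without the first M1 CM library (0.14). The count of markers called in M2 CM over M0 CM was 2 with library sizes alone and ran from 1 to 2 over libraries left out. Leaving Klf15 and Tfcp2l1 out of their lists, a choice made after seeing the data, kept every count of list genes called within 1.5 times. All 78 counts of genes called were within 1.5 times of those reported. Library numbers did not pair the samples: deviations of same-numbered libraries correlated between -0.0289 and 0.0507 across genes, and those of others between -0.0516 and 0.0515. With the replicate number as a block, 7806 genes were called in M1 CM, 5821 with M2 CM and 10184 with TAM CM over M0 CM, and no call of a marker changed. Pairs of libraries in a group differed by more than sampling noise (chi-square over its degrees of freedom 1.98 to 4.97). Depth limits Aldh1a3, Prom1, Aldh1a1, Pou5f1 and Nanog, which all stayed below 1 CPM.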

Other observations

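Of 19 genes of retinoid handling, the pathway that Aldh1a3 feeds, 14 were tested against M0 CM. In M1 CM 6 were higher and 5 lower (median log2 -0.0060), where 53.4% of all genes were called. In M2 CM 3 were higher and 8 lower (median -0.24), beside 39.4% of genes called, and in TAM CM 6 were higher and 8 lower (median -0.45, mean 0.14), beside 70.0%. Rarg, the retinoic acid receptor of skin, rose to 299 ± 3.81 CPM in M1 CM and fell to 148 ± 3.69 in M2 CM and 147 ± 6.92 in TAM CM, against 208 ± 5.54 in M0 CM. Crabp2, which carries retinoic acid to its receptors, rose to 99.6 ± 7.15 CPM in M1 CM and 136 ± 0.310 in TAM CM and fell to 54.3 ± 3.33 in M2 CM, against 84.4 ± 2.26 in M0 CM. Dhrs9, a short-chain dehydrogenase, rose to 65.5 ± 3.77 CPM in M1 CM, 36.0 ± 4.42 with M2 CM and 123 ± 3.57 with TAM CM, against 29.1 ± 0.711 in M0 CM.

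Of 17 aldehyde dehydrogenases outside the marker list, 3 had no count and 13 were tested against M0 CM. In M1 CM 5 were higher and 3 lower (median log2 0.11), beside 53.4% of all genes called. In M2 CM 2 were higher and 6 lower (median -0.20), beside 39.4%, and in TAM CM 4 were higher and 6 lower (median -0.31), beside 70.0%. Aldh1l1 is among the lower genes in both, with 17 counts in M2 CM and 3 in TAM CM, against 66 in M0 CM and 69 in M1 CM. It passed the filter only through M0 CM and M1 CM, which favours such a fall, so the counts of lower genes are not read as a result. Aldh18a1, which starts proline synthesis, rose to 215 ± 8.75 CPM in M1 CM, 138 ± 5.34 with M2 CM and 455 ± 4.01 with TAM CM, against 125 ± 5.92 in M0 CM. Aldh3a2, a fatty aldehyde dehydrogenase, rose to 83.4 ± 0.871 CPM in M1 CM and 165 ± 2.92 in TAM CM and fell to 51.7 ± 0.290 in M2 CM, against 56.4 ± 3.01 in M0 CM. Aldh2, the mitochondrial enzyme of acetaldehyde, fell to 166 ± 2.29 CPM in M1 CM and 116 ± 3.33 in M2 CM and was at 189 ± 5.29 in TAM CM without passing, against 187 ± 4.02 in M0 CM. Aldh1l2, a mitochondrial folate enzyme chosen after its values were seen, rose to 1291 ± 17.0 CPM in TAM CM, against 43.0 ± 1.83 in M0 CM. It also rose 5.79-fold in M1 CM (edgeR adjusted p = 4.25e-10) and 1.27-fold in M2 CM (adjusted p = 0.0101) over M0 CM.

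Of 17 genes of squamous differentiation 4 could be tested against M0 CM. In M1 CM 3 were lower and none higher, beside 25.6% of all genes lower. In M2 CM 1 was higher and 1 lower, beside 21.0% and 18.5%, and in TAM CM 3 were lower and none higher, beside 34.9% lower. Trp63 is among the lower genes in M1 CM and TAM CM. It passed the filter through media where it is high, which favours such a fall, so those counts are not read as a result. Sprr1a, a cornified envelope protein, was at 5.45 ± 0.834 CPM in M1 CM, 17.7 ± 1.53 in M2 CM, 2.62 ± 0.209 in TAM CM and 10.8 ± 1.47 in M0 CM, passing in each. Trp63 fell to 0.124 ± 0.0902 CPM in M1 CM and 0.364 ± 0.237 in TAM CM, against 1.79 ± 0.141 in M0 CM. Pkp1 fell to 0.447-fold in M1 CM, 0.512-fold in M2 CM and 0.581-fold in TAM CM over M0 CM, passing in each. Of 14 genes of simple epithelium and mesenchyme 9 were tested against M0 CM. In M1 CM 3 were higher and 5 lower (median log2 -0.11), beside 53.4% of all genes called. In M2 CM 4 were higher and 4 lower (median 0.029, and -0.027 with library sizes alone), beside 39.4%, and in TAM CM 3 were higher and 5 lower (median -0.80), beside 70.0%. Vim fell to 0.928-fold in M1 CM, 0.822-fold in M2 CM and 0.368-fold in TAM CM over M0 CM. Fn1 fell to 0.560-fold in M1 CM and 0.730-fold in M2 CM but rose 1.59-fold in TAM CM over M0 CM.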
